A study of Mus musculus with 36 samples.

Results

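Among 63594 H3K27ac consensus regions of the mouse forelimb bud, 4469 had a peak in every library of runs 1 and 2 of the study and in no library of run 3, and these missing regions are described here. A consensus region was any stretch where peaks from at least 2 of the 18 deposited lists lay. The missing regions were chosen by their peak calls, as those overlapped by a peak in all 10 lists of runs 1 and 2 and by no peak in the 4 lists of run 3. Their presence in runs 1 and 2 and absence from run 3 is therefore no finding. Of the 19035 regions that all 10 lists of runs 1 and 2 called, 4469 met the rule, which is 23.5%. The remaining 14566 common regions had a peak in at least 1 run 3 list, and 10497 of them, called retained regions here, had a peak in all 4.

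The study profiled H3K27ac by ChIP-seq in forelimbs pooled from FVB mouse embryos at embryonic day 11.5. Wild-type (WT) embryos were set beside 6 knockout lines, each lacking 1 limb enhancer and named after it (hs72, mm1179, hs1262, hs1586, hs1467 and hs1603). No embryo was treated, and the antibody (Active Motif) was the same in every library. Replicates 1 and 2 of WT and of mm1179 made up run 1, while replicates 3 and 4 of each were in run 2 together with the hs72 pair. Run 3 held replicate 1 of hs1262, hs1467, hs1586 and hs1603, and run 4 held replicate 2 of the same 4 lines. Runs are named from a tag in the names of the deposited lists, which the labels do not give. Runs 1 and 2 carry tags of their own, whereas runs 3 and 4 share a tag and differ only in a digit after it, which matches the replicate number. Whether these were separate sequencing runs is not given in the sources used here. Replicates 1 and 2 of those 4 lines share a genotype and differ in that digit, whereas against WT their run and genotype cannot be told apart. The run 3 lists held 26550 to 32472 peaks, those of run 1 30719 to 37929, those of run 2 37846 to 45267 and those of run 4 54375 to 58753. The lists give no read counts, so the depth is unknown, and a missing peak is a call that was not made, not an absence of the mark. In pooled tissue, fewer cells with the mark and less mark per cell cannot be told apart.

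Acetylation of histone H3 at lysine 27 is laid down at active enhancers and promoters by the acetyltransferases p300 and CBP. Most marked stretches are short, but genes for transcription factors that govern cell identity often lie under broad domains that span the gene and its flanks. In the limb bud such genes set the axes of the limb: Hand2 acts in the posterior mesenchyme upstream of Sonic hedgehog, Hox genes pattern the limb from shoulder to digit, and T-box, Msx, Irx and Sall factors subdivide it.

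Promoter sequences of 6 such genes show what kind of site lies at genes with broad regions. Whether these bases lie within the regions was not checked, as the regions are in mm9 and the sequences in GRCm38.p6. Hand2, Shox2, Sall1 and Msx1 have the widest missing regions among the single genes of the locus lists with a RefSeq promoter, and Snai1 and Meis1 the widest retained ones. Each line gives the 250 bases upstream of the start site, 5′ to 3′ on the gene's own strand, from RefSeq (GRCm38.p6), with every CG dinucleotide in capitals. Hand2 and Snai1 lie on the plus strand and the other 4 genes on the minus strand.
Hand2: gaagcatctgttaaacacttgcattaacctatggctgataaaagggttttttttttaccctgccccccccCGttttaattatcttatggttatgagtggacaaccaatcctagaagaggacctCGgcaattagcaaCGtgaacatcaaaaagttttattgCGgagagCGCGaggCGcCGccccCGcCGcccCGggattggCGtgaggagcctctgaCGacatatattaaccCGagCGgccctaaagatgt
Shox2: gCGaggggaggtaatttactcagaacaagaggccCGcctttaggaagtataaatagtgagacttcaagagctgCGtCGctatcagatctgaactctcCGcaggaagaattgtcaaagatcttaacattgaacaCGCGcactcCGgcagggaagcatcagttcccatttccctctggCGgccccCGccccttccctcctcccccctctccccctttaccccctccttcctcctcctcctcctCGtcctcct
Sall1: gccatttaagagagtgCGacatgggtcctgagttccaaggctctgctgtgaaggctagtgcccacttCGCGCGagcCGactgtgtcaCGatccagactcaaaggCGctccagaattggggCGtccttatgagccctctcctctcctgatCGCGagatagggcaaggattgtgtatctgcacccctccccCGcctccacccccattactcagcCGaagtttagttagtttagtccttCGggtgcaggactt
Msx1: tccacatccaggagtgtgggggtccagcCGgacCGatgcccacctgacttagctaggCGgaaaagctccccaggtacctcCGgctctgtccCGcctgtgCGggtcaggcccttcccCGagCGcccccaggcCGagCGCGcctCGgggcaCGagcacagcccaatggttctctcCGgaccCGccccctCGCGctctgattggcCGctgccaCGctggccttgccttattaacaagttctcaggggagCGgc
Snai1: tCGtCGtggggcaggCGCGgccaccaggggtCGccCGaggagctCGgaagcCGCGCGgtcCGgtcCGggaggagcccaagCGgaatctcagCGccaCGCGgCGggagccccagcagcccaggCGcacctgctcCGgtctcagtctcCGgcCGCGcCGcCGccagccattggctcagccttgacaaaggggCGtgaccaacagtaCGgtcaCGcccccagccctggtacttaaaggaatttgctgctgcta
Meis1: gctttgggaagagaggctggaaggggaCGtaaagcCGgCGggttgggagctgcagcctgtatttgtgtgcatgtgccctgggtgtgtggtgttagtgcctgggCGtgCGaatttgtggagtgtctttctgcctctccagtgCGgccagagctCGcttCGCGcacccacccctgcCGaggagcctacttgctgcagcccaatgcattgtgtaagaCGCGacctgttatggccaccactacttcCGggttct

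The letters did not set the missing genes apart. Of 62 single-gene loci, 36 had a promoter entry, and 25 of these had a common region within 10 kb of the approximate start site. For the 8 genes whose widest such region was missing in run 3 (Hand2, Shox2, Twist2, Irx3, Sall1, Fgfr2, Msx1 and Msx2), the GC content of the 250 bases had a median of 56.2% and ranged from 44% to 68.8%. For the 6 retained genes (Meis1, Meis2, Snai1, Dusp6, Bmp4 and Sox5) the median was 58% and the range 39.6% to 70%, so the ranges overlapped. The number of CG dinucleotides, searched as the letters CG, which read the same on both strands, had medians of 14 and 12. At least 10 were present in 7 of the 8 missing and 4 of the 6 retained promoters. Among all 32851 promoters of the table, 92.1% held a CG in this window and 37.8% held at least 10.

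The 4 lines that lacked peaks at these regions in run 3 had them in run 4. Of the 4469 missing regions, 4468 were called in all 4 run 4 lists, beside 19031 of the 19035 common regions (100% after rounding), so the share did not separate missing from other regions. The exception was chr15:59231116-59232454, a region of 1339 bp without a peak in hs1603 replicate 2 alone. Peaks of run 4 covered nearly the whole of the typical missing region. The median share of its bases covered was 98.6% in hs1467, 97.7% in hs1262, 94.8% in hs1586 and 93.6% in hs1603 replicate 2. The region held exactly 1 peak in 96.5% to 98.6% of cases in these lists. Averaged over the libraries of a run, the median share covered was 72.5% in run 1, 76.3% in run 2 and 96.1% in run 4. In the retained regions it was 65.4%, 77.7% and 92.1%, so the greater coverage in run 4 was not particular to the missing regions.

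The run 3 lists differed in how much of the common set they lacked. Peaks were missing at 29.5% of the 19035 common regions in hs1262 replicate 1, at 30.1% in hs1467, at 33.3% in hs1586 and at 41.9% in hs1603. The missing regions are the part on which all 4 coincided. Just outside the rule, 1287 common regions were called by 1 run 3 list. That list was hs1262 for 593 of them, hs1467 for 434, hs1586 for 244 and hs1603 for 16. A further 736 regions lacked a peak in all of run 3 and in 1 of the 10 lists of runs 1 and 2, and these had a median width of 2534.5 bp, against 3014 bp in the missing regions. When every list was cut to the 26550 highest-scoring peaks, the length of the shortest list, 3495 regions met the rule.

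Missing regions were narrower than the other common regions. Their median width was 3014 bp, with a middle range (25th to 75th percentile) of 2556 to 3863 bp, against a median of 3982 bp in the others and 4019 bp in the retained regions. The share missing fell from 45.7% in the narrowest decile of common regions to 8.41% in the widest. Width by bases covered in run 4 gave the same order, from 37.9% in the lowest decile to 8.93% in the highest. It is not an independent measure, since the regions were drawn from all 18 lists, run 4 included. A call also needed an overlap of only 1 bp, which a wider region meets more easily, and the part of this in the trend was not tested. Despite the trend, 77 missing regions were at least 10 kb wide and 14 at least 20 kb, and together the missing regions spanned 16.2 Mb.

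**Figure D1:**
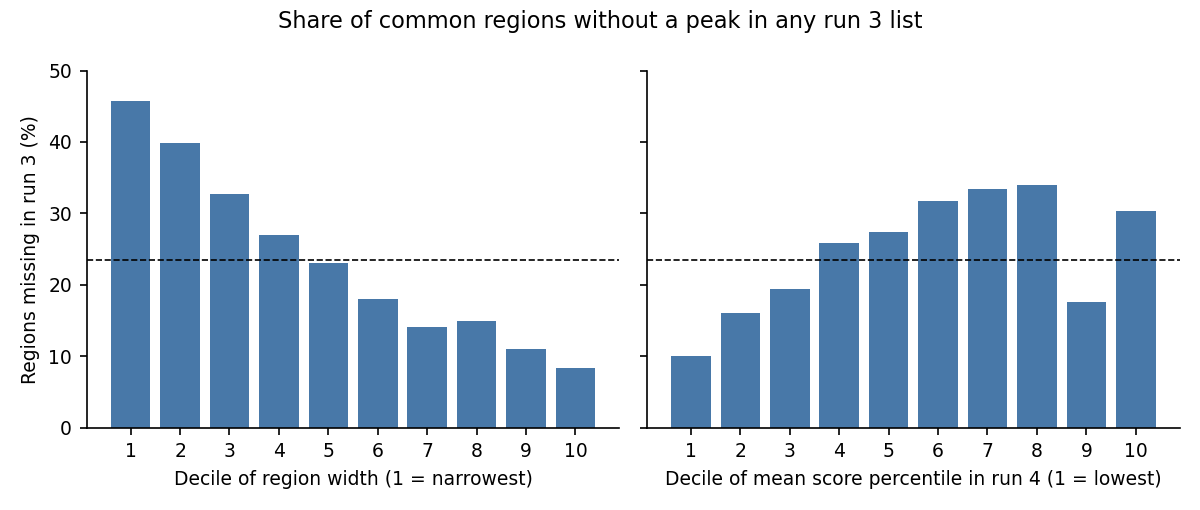
Share of the 19035 common regions that had no peak in any run 3 list (bars, y axis in percent), by decile of region width (left) and by decile of mean score percentile in the 4 run 4 lists (right), with the overall share of 23.5% as a dashed line. The share falls from 45.7% to 8.41% with width and rises from 10.1% to 34.0% over the first 8 deciles of score percentile, with 17.6% in decile 9, which tied scores enlarge to 3578 regions, and 30.3% in decile 10.

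The authors' peak score was used only as a rank, here the percentile of a region's highest-ranked peak within its own list. In run 4, missing regions ranked slightly above the others, with a median of the mean percentile over the 4 lists of 84.6 against 81.5 in the other common regions and 79.5 in the retained regions. Where peaks had to cover at least 50% of a region to count as a call, the order turned, with 86.7 in the missing and 87.3 in the other regions. Regions called by 1, 2 or 3 run 3 lists ranked higher still, with medians of 89.04, 88.5 and 86.7. The share missing rose from 10.1% in the lowest decile of run 4 percentile to 34.0% in decile 8, and was 17.6% among the 3578 regions of decile 9, enlarged by tied scores, and 30.3% among the 228 of decile 10. By the percentile in runs 1 and 2, the share was between 24.3% and 29.0% in deciles 1 to 8, 343 of 1903 regions in decile 9 and 6.36% in the top decile.

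The rank of the missing regions depended on the run. In run 1 their median percentile was 76.5 in WT replicate 1, 72.9 in WT replicate 2, 74.8 in mm1179 replicate 1 and 71.6 in mm1179 replicate 2. The retained regions had 66.5, 71.2, 68.6 and 60.6 in the same libraries, lower in each of the 4. Against all other common regions the order held in 3 of the 4, with 73.5 against 72.9 in WT replicate 2. In run 2 the missing regions had medians from 66.4 to 73.1 and the retained regions from 73.8 to 79.0, higher in each of the 6 libraries. In run 4 the missing regions stood above the retained ones in all 4 libraries, at 85.6 against 79.3 in hs1467, 85.0 against 81.2 in hs1262, 84.4 against 78.5 in hs1603 and 84.0 against 80.6 in hs1586.

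**Figure D2:**
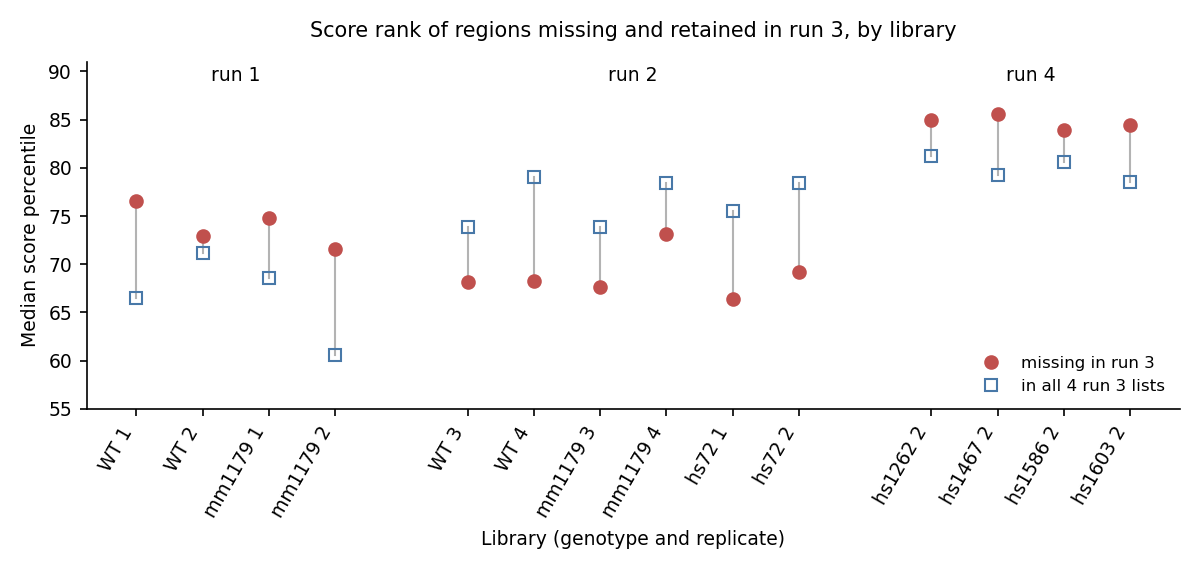
Median score percentile (y axis, starting at 55) of the 4469 missing regions (red circles) and the 10497 retained regions (blue squares) in each library of runs 1, 2 and 4. Circles lie above squares in the 4 run 1 and the 4 run 4 libraries and below them in the 6 run 2 libraries.

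Scores of exactly 3100 were shared by 3037 to 3629 peaks in each run 4 list, and these tied peaks were wider than the few that scored above them. Tied peaks share a percentile within each list, from 96.5 to 96.9 in run 4. Run 4 percentiles of 96.5 to 96.9 at the loci below stand for this tie, not for a finer rank. A score of 3100 in all 4 run 4 lists was held by 411 missing regions (9.20%) and by 2248 other common regions (15.4%). The 12 missing regions with the highest mean percentile in run 4 are therefore not the broadest, and they were 2.72 to 6.39 kb wide. The first was chr9:55888650-55892388, with a mean of 98.4, and the second chr9:31017927-31021624, also with 98.4.

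Missing regions lay next to each other along the chromosomes more often than common regions in general. Following the map, the next common region was also missing after 1563 of 4462 missing regions (35.0%) and after 2899 of 14552 others (19.9%). They formed 2906 series of consecutive missing regions. In these series, 1982 regions stood alone, 2487 were in series of 2 or more, and 76 series had at least 5. The longest had 11 regions on chr19:5909769-6120308, a span of 210.5 kb, with region widths from 2340 to 5919 bp and mean run 4 percentiles from 65.2 to 97.4. A series of 9 lay on chr7:19850482-20149603, with regions up to 8435 bp wide. Series of 8 lay on chr10:80163041-80606178 and chr15:76307213-76703487, and one of 7 on chr7:146573385-148069322. In absolute distance they were sparse, since 1687 (37.7%) had another missing region within 50 kb and 509 (11.4%) within 10 kb. By chromosome the share of common regions missing was highest on chromosome 19 (31.1%), chromosome 11 (29.3%) and chromosome 5 (27.3%), and lowest on X (14.7%) and chromosome 18 (17.2%), leaving aside Y, where 0 of 2 common regions met the rule.

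Few missing regions lay directly beside a run 3 peak. By the rule no run 3 peak overlaps them, whereas each other common region overlaps at least 1, so the distances have no matching value there. The median gap between adjacent common regions was 36.3 kb. It counts common regions only and does not take the nearer side, so it is not a like measure. The nearest peak of any run 3 list was at a median distance of 18.9 kb, with a middle range from 6.44 to 43.5 kb. A run 3 peak lay within 500 bp of 91 missing regions (2.04%) and within 5 kb of 905 (20.3%). No run 3 peak lay within 50 kb of 951 (21.3%).

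**Figure D3:**
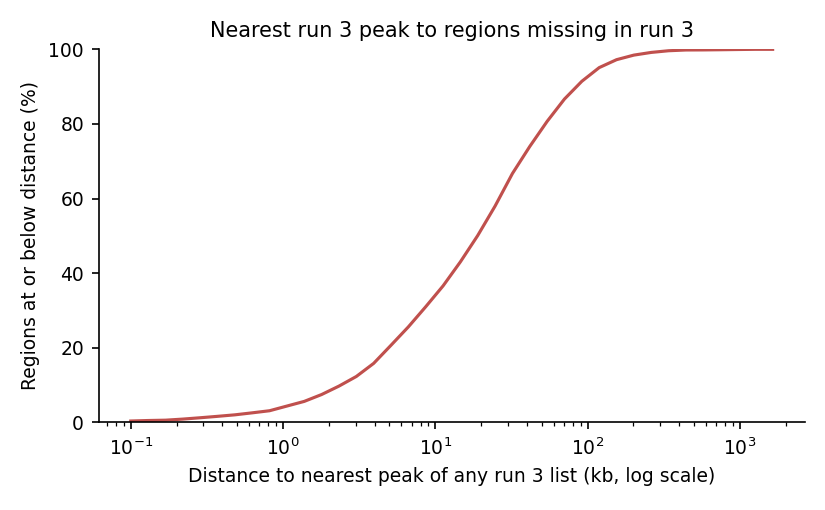
Cumulative share of the 4469 missing regions (y axis, percent) whose nearest peak in any run 3 list lies at or below a given distance (x axis, kb, log scale). The curve stands at 4.12% at 1 kb, 33.8% at 10 kb and 78.7% at 50 kb.

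Developmental loci were taken from a list of 66 genes and clusters, each with 100 kb on both sides. Their mm9 positions are approximate, and a window can hold regions of a neighbouring gene. In these windows 59 of 281 distinct common regions were missing (21.0%), near the 23.5% over all common regions, so the windows as a whole did not stand apart. At least 1 region was missing at 39 loci, none of the common regions was missing at 21, and 6 had no common region (Shh, Hhip, En1, Nog, Pax1 and Kdr). Shares by class ran from 2 of 25 at Hedgehog and posterior loci to 8 of 25 at Hox and proximodistal loci, 19 of 65 at mesenchyme transcription factors and 6 of 13 at Actb and Gapdh, which most cells express. At HoxB, Shox2, Tbx3, Irx3, Irx5, Osr1, Wnt7a and Dlx5 every common region in the window was missing, which for all but Wnt7a (2) was a single region.

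**Figure D4:**
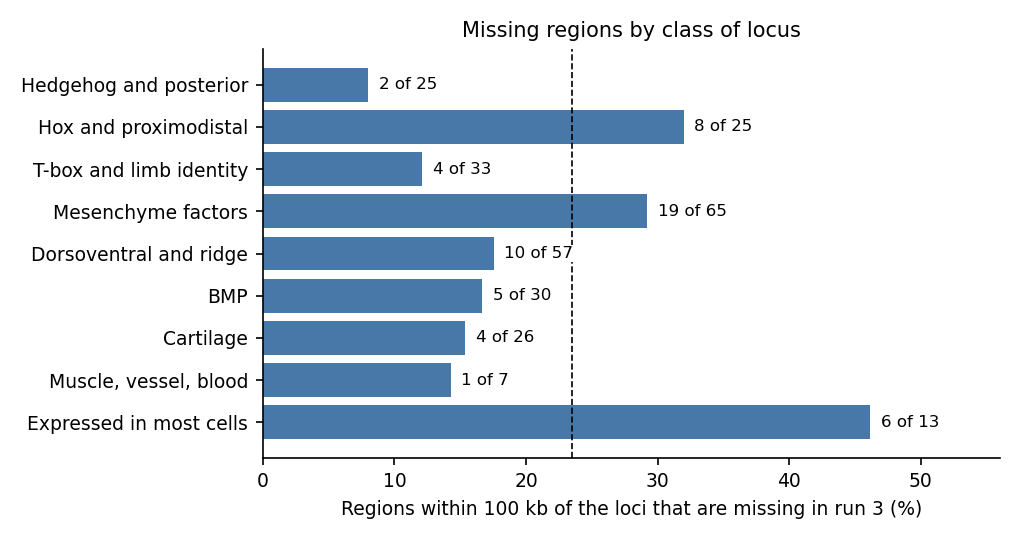
Share of common regions within 100 kb of the loci of each class that were missing in run 3 (bars, x axis in percent), with the counts beside the bars and the share over all 19035 common regions (23.5%) as a dashed line. Hox and proximodistal loci (8 of 25), mesenchyme factors (19 of 65) and Actb with Gapdh (6 of 13) lie above the line and the other classes below it.

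The widest regions at the genes were missing more often than common regions in general. A widest region per gene and all regions of a window are unlike units, so their shares are not compared. The widest common region overlapping the gene or 10 kb on either side was missing at 21 of the 52 loci that had one (40.4%). Over all common regions the share was 23.5%. The widest region was in all 4 run 3 lists at 12 of the loci (23.1%), against 55.1% of all common regions. Among these widest regions, 14 of the 34 at least 10 kb wide were missing (41.2%), against 77 of all 965 common regions of that width (7.98%). All 4 run 3 lists kept 7 of these 34 (20.6%), against 585 of the 965 (60.6%). The locus list was drawn up with earlier results of these data known, so these counts describe the listed genes. Their order held whichever library of runs 1 to 3 was left out, with 14 to 17 of the 34 missing at the genes and 7.95% to 13.3% of all wide regions, the highest values being without hs1467 replicate 1.

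**Figure D5:**
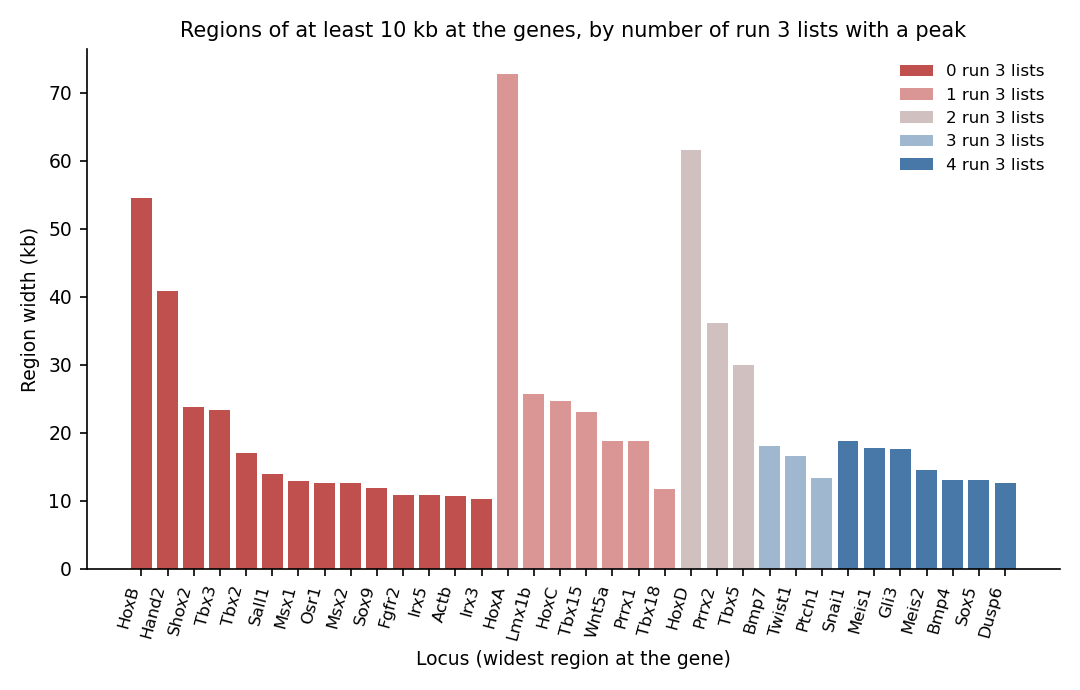
Width (y axis, kb) of the widest common region at each of 34 loci where it reached 10 kb, coloured by the number of run 3 lists with a peak in it. The 14 missing regions (dark red) range from 10.3 kb at Irx3 to 54.5 kb at HoxB, and the 7 retained ones (dark blue) from 12.6 kb at Dusp6 to 18.8 kb at Snai1.

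The missing posterior regulator was Hand2. Its domain at chr8:59788858-59829693 was 40.8 kb wide and ranked at percentiles from 96.3 to 99.99 in runs 1 and 2. In run 4 it held the tied score of 3100 in each list, at percentiles from 96.5 to 96.9. Peaks covered 34.1 and 36.2 kb of it in WT replicates 1 and 2, 37.3 and 39.0 kb in WT replicates 3 and 4, and 35.2, 32.5, 38.3 and 39.6 kb in mm1179 replicates 1 to 4. They covered 38.5 and 39.7 kb in the hs72 replicates. In run 4 they covered 40.7 kb in hs1262, 39.7 kb in hs1603, 39.5 kb in hs1467 and 39.3 kb in hs1586. The lines without a peak there in run 3 thus had peaks over nearly the whole domain in run 4, which helped to set its borders. The nearest run 3 peaks lay 71.1 and 9.21 kb away. Gli1, a transcriptional target and effector of Hedgehog signalling, had a 4.70 kb missing region at chr10:126775422-126780116. It ranked at 82.9 to 91.9 in runs 1 and 2 and at 89.3 to 96.5 in run 4. Ptch1, the Hedgehog receptor, was called in 3 run 3 lists (13.3 kb). The widest region at Gli3, the repressor of the pathway, was called in all 4 (17.6 kb), but the 9.39 kb region near its start site in only 1.

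The Hox clusters, which encode the positional code of the limb, differed in what run 3 lacked. HoxB held the widest missing region, chr11:96162787-96217312 (54.5 kb), with run 3 peaks no nearer than 224.2 kb on one side and 47.1 kb on the other. The HoxB and HoxC regions no longer met the rule when a call required 50% coverage. Covered length at HoxB varied between libraries. It was 35.7, 40.8, 21.3 and 23.6 kb in WT replicates 1 to 4. In mm1179 replicates 1 to 4 it was 41.7, 31.5, 39.3 and 41.6 kb, and in hs72 23.6 and 41.8 kb. In run 4 it was 52.9 kb in hs1262, 54.5 kb in both hs1467 and hs1586 and 48.6 kb in hs1603. Each lay above every library of runs 1 and 2, as median coverage did over the missing regions in general. The number of peaks at HoxB was 7 to 12 in runs 1 and 2 and 1 to 6 in run 4. At HoxA a 23.4 kb region (chr6:52107911-52131347) was missing from run 3, while the 72.8 kb domain beside it (chr6:52149065-52221850) had a peak in hs1586 replicate 1 only, which covered 8.51 kb. HoxC had an 18.8 kb missing region (chr15:102854747-102873536), and its neighbour of 24.7 kb was called in hs1467 replicate 1 alone. The 61.6 kb HoxD domain was called in hs1467 and hs1603 replicate 1, and the missing HoxD region beside it was 5.52 kb (chr2:74548422-74553937).

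Among genes of proximodistal and limb identity, Shox2, a homeobox gene of proximal limb growth, had a 23.8 kb missing region at chr3:66767439-66791225. It lay at percentiles of 98.5 to 99.5 in all 10 lists of runs 1 and 2 and at 96.5 to 96.9 in run 4, where peaks covered 23.5 to 23.8 kb. Meis1 and Meis2, the homeobox genes of the proximal limb, had regions of 17.8 and 14.5 kb in all 4 run 3 lists. Tbx3, a T-box gene of the limb margins, had a 23.4 kb missing region (chr5:120116929-120140328) with the same percentile as that of Shox2 in every library, both tied at a score of 3100. Tbx5, the forelimb initiation gene that lies near it, had a 30.0 kb region called by hs1467 and hs1586 replicate 1, with up to 29.9 kb covered. Tbx2, a paralogue of Tbx3, had a 17.1 kb missing region (chr11:85641878-85658974) whose window it shares with Tbx4. That region ranked from 60.6 in mm1179 replicate 2 to 96.2 in WT replicate 2, but its covered length stayed between 15.4 and 17.1 kb in runs 1, 2 and 4.

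Mesenchyme transcription factors included the zinc-finger gene Sall1, with a 14.02 kb missing region at chr8:91558101-91572122. Peaks covered 11.6, 13.1, 12.6 and 13.4 kb of it in WT replicates 1 to 4, 12.8, 11.9, 13.2 and 13.8 kb in mm1179, 11.4 and 12.9 kb in hs72, and 13.3 to 14.02 kb in run 4. Irx3 and Irx5, neighbouring homeobox genes, had missing regions of 10.3 kb (chr8:94321112-94331417) and 10.8 kb (chr8:94877729-94888571). Both were covered over a greater length in run 4, as missing regions were in general. At Irx3, covered length was 3.07 to 7.02 kb in runs 1 and 2 and 8.10 to 10.3 kb in run 4, and at Irx5 2.96 to 6.96 kb and 8.75 to 10.8 kb, without overlap. The Irx3 percentile was 86.5 to 91.2 in the 4 run 1 libraries and 42.0 to 79.5 in the 6 of run 2, so the runs did not overlap. At Irx5 it was 77.3 to 87.2 and 42.5 to 76.0, also without overlap. Missing regions in general ranked lower in run 2 (mean of the library medians 68.8) than in run 1 (73.9). How many of them separate in this way was not counted. Osr1, an odd-skipped gene of the mesenchyme, had a missing region of 12.7 kb (chr12:9580227-9592937), and those of Twist2 and Alx4 were 8.29 and 9.80 kb wide. With 50% coverage required, those at Irx3, Irx5, Osr1 and Twist2 no longer met the rule. The widest region at Prrx1, an early limb mesenchyme gene, was called by hs1467 replicate 1 alone (18.8 kb). The widest at Twist1 was called by 3 run 3 lists and the widest at Snai1 by all 4. In the Snai1 window, however, 3 of 6 common regions were missing, the widest of 11.2 kb (chr2:167406599-167417812).

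Signalling genes were divided in the same way. Fgfr2, the receptor through which mesenchyme and ridge exchange FGF signals, had a 10.9 kb missing region (chr7:137400240-137411170), which ranked at 81.1 to 89.9 in runs 1 and 2 and at 88.5 to 91.8 in run 4. Fgf8, a ligand of the apical ectodermal ridge, lacked a run 3 peak at 3 of the 5 common regions in its window, the widest of 3.38 kb. Dusp6, a target and inhibitor of FGF signalling, had a 12.6 kb region in all 4 run 3 lists. The homeobox genes Msx1 and Msx2, targets of BMP signalling, had missing regions of 12.97 kb (chr5:38207782-38220750) and 12.6 kb (chr13:53556641-53569230). Msx1 ranked at 83.0 to 94.6 in runs 1 and 2 and at 96.5 to 96.9 in run 4, the tied score of 3100. Msx2 ranked at 28.9 in WT replicate 1, at 84.2 to 92.4 in the other 9 lists and at 83.9 to 87.7 in run 4. The Msx2 region no longer met the rule with scores of at least 100. Bmp4, a ligand upstream of them, kept its 13.1 kb region in all 4 run 3 lists, and Bmp7 kept an 18.1 kb region in 3.

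In the cartilage programme, Sox9, the master regulator of chondrogenesis, had an 11.9 kb missing region at chr11:112638837-112650739. Its percentile was 91.5 to 96.1 in runs 1 and 2 and 96.5 to 96.9 in run 4, the tied score of 3100. Covered length was 5.46, 7.59, 4.97 and 6.86 kb in WT replicates 1 to 4, 6.01, 5.43, 7.11 and 10.8 kb in mm1179, 5.64 and 7.61 kb in hs72, and 10.96 to 11.9 kb in run 4. The run 4 values lay above all others, as median coverage did over the missing regions in general. The Sox9 region no longer met the rule with 50% coverage required. Col2a1, a cartilage collagen and target of Sox9, kept the 7.1 kb region at the gene in all 4 run 3 lists. Sox5, the partner of Sox9, likewise kept a 13.02 kb region. In the window of Col2a1, 3 of 7 common regions lacked a run 3 peak, the widest of 3.17 kb. Genes outside limb patterning also had missing regions. Actb, which encodes cytoplasmic actin, had a 10.8 kb missing region (chr5:143662036-143672798) that ranked at 98.5 to 99.97 in runs 1 and 2. In the windows of markers of other limb bud cells, 1 common region of 7 was missing. This 1.96 kb region lay in the window of Gata1, an erythroid factor, but no common region lay within 50 kb of that gene. The region no longer met the rule with scores of at least 100, equal lists or 50% coverage. No common region was missing at the muscle genes Pax3 and Myf5 or at Tal1.

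Outside the locus list, 5 further wide missing regions were assigned to genes after their values were seen. They lay at Glis2 (chr16:4638243-4664159, 25.9 kb), the retinoic acid receptor gene Rara (chr11:98782894-98808037, 25.1 kb), Midn (chr10:79608833-79632445, 23.6 kb), Tfap2a (chr13:40812337-40835374, 23.0 kb) and the growth factor gene Igf2 (chr7:149835543-149854954, 19.4 kb). All 5 ranked above the 92nd percentile in each list of runs 1, 2 and 4.

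The rule did not contrast mm1179 with WT, and both genotypes had 2 libraries in each of runs 1 and 2, but every region compared had to have a peak in all 8 of their lists. The median percentile of the missing regions per library was 71.5 ± 4.0 in WT and 71.8 ± 3.1 in mm1179 (SD, n = 4 each), a difference of 0.27 (exact two-sided permutation test over libraries, p = 0.971). Within run 1 the difference was -1.57 (exact p = 0.667) and within run 2 it was 2.11 (exact p = 1), where 2 libraries against 2 cannot go below 0.333. The hs72 libraries, both of run 2, had 66.4 and 69.2. Region by region, WT lay above mm1179 in all 4 libraries at 55 missing regions (1.23%), against 1.24% of the 19485 regions called in all 8 libraries. The opposite held at 55 (1.23%), against 0.606%. No region passed the exact permutation test with Benjamini-Hochberg adjustment over all 19485, where the smallest adjusted p was 1. The smallest possible unadjusted exact p, 0.029, was reached by 360 regions, 110 of them missing in run 3. Because 4 libraries against 4 cannot go below this value, a region could pass the adjustment only if most of the 19485 reached it. The adjusted test therefore could not tell whether single regions differed between the genotypes.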

How the data were processed

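H3K27ac ChIP-seq peak lists of 18 libraries were analysed, 1 per library, and the 18 input samples were not used. The build was mm9, and the submitters' processing notes list MACS 1.4.2, Bowtie 0.12.8, cutadapt 1.1, bcl2fastq 2.17 and CASAVA. Each list deposited by the authors holds peak positions with a score, from 40 to 3233. The score is the authors' own value, and was turned into a percentile within its list (ties at their mean rank). Consensus regions and calls (overlap of at least 1 bp) were computed with Python 3.11.15, numpy 2.4.6 and scipy 1.17.1, and figures with matplotlib 3.10.9. Coordinates are 1-based in mm9. Read depth is unknown, so no counting error is given. Labels describe pooled forelimbs and do not say that replicates came from separate pools, so p-values measure only the spread between these libraries, which may be technical.

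No mm9 annotation was used. Locus positions are approximate mm9 positions from general knowledge. They were checked against the RefSeq table of GRCm38.p6: 71 of 71 loci were on the same chromosome, the order differed on 0 chromosomes, and 70 spans were within 30 kb (not Sox5). The rule, the locus lists and the tests were chosen with earlier results of these data known. Named regions are the 12 with the highest run 4 percentile, the 6 widest, the 5 longest series and the widest missing region at each of the 66 loci, and 5 loci, the regions at the genes, the promoter counts and the comparison of run 1 with run 2 were added after seeing the data. Some named regions are given only as ranges.

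Same-numbered WT and mm1179 libraries, which also share a run tag, were checked as pairs. The correlation of their deviations from the genotype means over regions was 0.122 to 0.396 in the 4 pairs, above 0.1 in each, against 0.126 to 0.343 for the other number of the same run and -0.363 to -0.114 across runs. Alternatives were a minimum score of 100, lists of equal length, coverage of 50% of a region, consensus over 3 lists or 1 list, autosomes, the replicate block and leaving out each library. Procedures were tested on simulated data.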

Additional observations from a re-analysis of the deposited data

Results flagged for a closer look

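The missing regions stood differently against the retained regions in runs 1 and 2, in every library of each run. The median percentile of missing minus retained regions averaged 7.23 over the 4 libraries of run 1 (range 1.76 to 10.9) and -7.74 over the 6 of run 2 (range -10.7 to -5.35). The difference of 14.97 had an exact two-sided permutation p of 0.00476 over 210 arrangements of the libraries, the smallest they can give. With WT and mm1179 libraries alone, which are balanced over the runs, it was 14.2 (exact permutation p = 0.029, the smallest of 70 arrangements). The run 1 lists were shorter, at 30719 to 37929 peaks, than those of run 2, at 37846 to 45267, and the part of list length in the difference was not tested. The comparison was chosen after its values were seen, and the rule used the same lists. The p-values therefore only restate that the runs did not overlap.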

How the results depend on the processing

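Of 162 recomputed values, 131 stayed on the same side or within the spread of the main value, 27 moved and 4 reversed. The number of missing regions was 3973 with scores of at least 100, 3495 with lists of equal length and 3165 where 50% coverage was required, and 4477 to 5062 when 1 library was left out. The median width of missing and other common regions, in bp, was 3316 and 4573.5 with scores of at least 100, 3206 and 4234 with equal lists, 2876 and 3705 with 50% coverage, 2877 and 3795.5 with consensus over 3 lists, and 3234 and 4321 with 1 list. Missing regions were narrower in each. Their median run 4 percentile was 73.8 with equal lists against 69.6 in the others, and 86.7 against 87.3 with 50% coverage, where the order turned. The others had 82.9 with scores of at least 100. With 1 library left out, the medians were 84.1 to 85.3 and 79.6 to 81.5. The mean share of missing regions called per run 4 list was 99.9499% with equal lists and 99.9723% to 99.9951% when leaving out 1 library.

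The mm1179 minus WT difference changed sign without WT replicate 3 (-0.827), WT replicate 4 (-0.793), mm1179 replicate 1 (-0.729) or mm1179 replicate 4 (-0.183), and ranged from -0.827 to 1.95 over the 8 libraries left out, with exact permutation p from 0.4 to 1 over its alternatives. With the replicate block the difference was 0.27 (exact permutation p = 1, where 4 pairs cannot reach 0.05), and the block changed no call. The count of missing regions without overlap between the genotypes was 110 and became 185 to 294 with 1 library left out, since 3 libraries against 4 separate more easily. Of 43 named regions (the widest and those at the loci), 33 were still missing with scores of at least 100, 36 with equal lists, 27 with 50% coverage, 43 with consensus over 3 lists and 42 with 1 list. Among regions of at least 10 kb at the genes, 12 of 27 were missing with 50% coverage (44.4%), against 13.4% of all such wide regions.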
